A study of Mus musculus with 9 samples.

Results

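Milk protein genes were followed in organoids grown from mammary cells and in the luminal differentiated (LD) cells of the mouse mammary gland. The 10 genes were taken by symbol: the caseins Csn1s1, Csn1s2a, Csn2 and Csn3, the whey proteins Wap, Lalba and Ltf, the mucin-like Glycam1, and Btn1a1 and Mfge8 of the milk fat globule. Every probe set that the array's annotation gives to one of these symbols alone was used, which made 18 of 34958 probe sets of a single gene, for 10 of 18194 genes. Of these genes, 4 had more than 1 probe set (Csn1s2a, Csn2, Csn3 and Btn1a1) and 6 had 1.

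Samples of 3 kinds were hybridized to Affymetrix arrays, with biological replicas A, B and C of each, 9 arrays in total. yMaSC organoids (labelled yOrg) came from FACS-purified LD cells in which YAP, a transcriptional coactivator restrained by the Hippo pathway, had been expressed from a doxycycline-inducible lentivirus with its transactivator rtTA. MaSC organoids (labelled Org) came from FACS-purified native mammary stem cells with no added gene. LD cells (labelled Lum) were freshly sorted and not cultured, and all donors were young adult virgin C57BL/6J mice unless another stage was given. Both kinds of organoid were kept in pure Matrigel under a medium with EGF, bFGF, heparin, noggin and R-Spondin1, a list that names neither prolactin nor a glucocorticoid. The paper states that yMaSC organoids were kept and passaged with doxycycline absent. Culture and the earlier YAP expression both separate yMaSC organoids from LD cells. Culture and cell of origin both separate MaSC organoids from LD cells. In neither comparison can the parts be told apart.

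Values were RMA values on a log2 scale, the lower quartile of an array was between 3.47 and 3.59, the upper quartile between 7.39 and 7.59 and the highest value between 14.42 and 14.66. A group whose mean lay at or below the lower quartile is called near background, and a difference from it is a lower limit. The 9 luminal markers had a mean level of 13.13, 12.99 and 12.97 in LD replicas A, B and C, with Krt8 at 14.26, 14.13 and 14.17. The 9 basal markers had a mean level of 5.19, 5.61 and 5.29. Of these, the transcription factor gene Trp63 was at 3.94, 3.60 and 3.98, but the keratin gene Krt14 was at 8.04, 7.27 and 7.42 and the smooth muscle actin gene Acta2 at 7.33, 8.82 and 7.33. With 3 arrays in each group the precision of the group means was limited, and in such bulk RNA fewer cells of a type and less RNA per cell cannot be told apart. LD replica B stood apart from LD replicas A and C in the milk protein genes themselves, as described below, and the differences of the milk protein genes from LD cells are given with and without it. Because these same values singled it out, p-values and counts from fits without it are descriptions and not independent tests.

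Milk proteins are made by alveolar luminal cells, which arise in number during pregnancy. Caseins form the micelles that carry calcium phosphate, whey proteins stay in solution, and lipid droplets leave the cell wrapped in membrane that carries butyrophilin and lactadherin. Prolactin acting through JAK2 and STAT5, together with glucocorticoids and contact with laminin, is the known inducer of many of these genes.

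The 4 casein genes lie in a cluster on chromosome 5. To show what the genes with the widest spread among LD samples carry directly before their start, the 200 bases upstream of Csn1s1, Csn2, Csn1s2a and Wap are printed, read from RefSeq promoters on build GRCm38.p6. Capitals mark TTCNNNGAA, the palindrome to which STAT5 is known to bind. The windows are chr5:87666008-87666207 on the plus strand, chr5:87699426-87699625 on the minus strand, chr5:87774250-87774449 on the plus strand and chr11:6638650-6638849 on the minus strand.
Csn1s1: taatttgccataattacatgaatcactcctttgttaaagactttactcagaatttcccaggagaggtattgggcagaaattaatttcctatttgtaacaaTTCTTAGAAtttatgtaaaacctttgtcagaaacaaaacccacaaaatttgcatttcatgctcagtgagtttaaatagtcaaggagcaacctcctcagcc
Csn2: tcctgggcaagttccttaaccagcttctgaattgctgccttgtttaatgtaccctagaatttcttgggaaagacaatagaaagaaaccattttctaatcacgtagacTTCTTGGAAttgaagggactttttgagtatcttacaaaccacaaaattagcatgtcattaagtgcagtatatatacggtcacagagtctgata
Csn1s2a: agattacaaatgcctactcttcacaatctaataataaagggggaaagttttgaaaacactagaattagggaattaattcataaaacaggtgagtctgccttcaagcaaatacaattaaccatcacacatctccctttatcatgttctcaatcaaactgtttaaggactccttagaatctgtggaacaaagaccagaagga
Wap: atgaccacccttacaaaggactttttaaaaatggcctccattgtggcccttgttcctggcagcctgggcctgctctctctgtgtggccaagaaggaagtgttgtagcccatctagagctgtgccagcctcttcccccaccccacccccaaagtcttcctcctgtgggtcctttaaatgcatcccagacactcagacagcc
Of the 10 genes, 8 were in the promoter table and 3 of the 8 held TTCNNNGAA in this window, on either strand, at bases -100 to -92 from the start in Csn1s1, -93 to -85 in Csn2 and -145 to -137 in Glycam1. The same letters were found in 5.51% of 32505 promoters of this length. TGTTCT, letters to which the glucocorticoid receptor can bind, searched on both strands, stood at bases -59 to -54 in Csn1s2a, against 12.8% of all promoters, and did not overlap the other motif. A match is a description of the letters and says nothing of binding in these cells.

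Against LD cells, 7 of 18 milk protein probe sets passed the test in yMaSC organoids, 2 higher and 5 lower (limma, adjusted p under 0.05 over all probe sets). Among all probe sets 34.8% passed, 19.4% higher and 15.4% lower, so the share among the milk protein probe sets was close to that of the array as a whole. In MaSC organoids 2 were again higher and 5 lower, beside 35.9% of all probe sets, 19.9% higher and 16% lower. The medians of the differences were -1.56 log2 for the 18 probe sets in both kinds of organoid, against -0.02 in yMaSC organoids and -0.03 in MaSC organoids for all. The genes that passed were the same 4 in both comparisons: Csn3 was higher in organoids, and Glycam1, Btn1a1 and Csn2 were lower. The comparisons share the LD samples. The remaining 3 probe sets of Csn1s2a stayed between 2.45 and 3.54 in all 9 arrays, at or below the lower quartile, and are not described further.

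**Figure D1:**
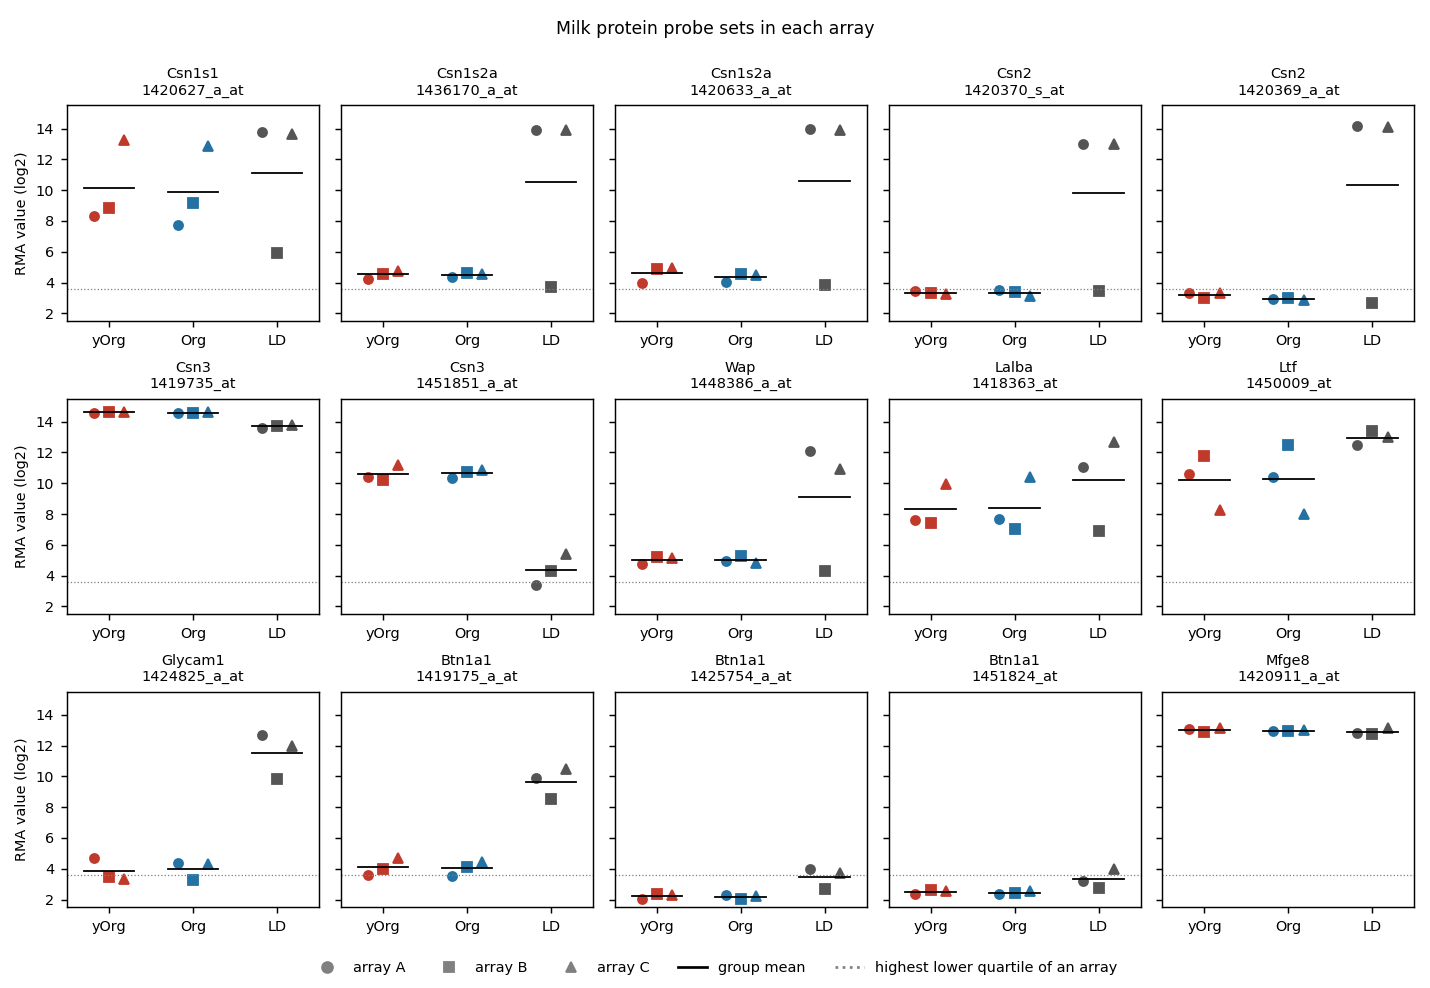
RMA values (log2) of the 15 milk protein probe sets above the lower quartile in at least 1 array, with yMaSC organoids (yOrg), MaSC organoids (Org) and LD cells from left to right. Markers are replicas A, B and C, the bar is the group mean and the dotted line is the highest lower quartile of an array, 3.59. Csn2, Csn1s2a, Csn1s1 and Wap are high in LD replicas A and C and low in LD replica B, and Csn3 is high in every organoid array.

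κ-casein, encoded by Csn3, coats the casein micelle and keeps it in solution. Its probe set 1419735_at read 14.59, 14.60 and 14.66 in yMaSC organoids A, B and C, 14.58, 14.58 and 14.60 in MaSC organoids, and 13.60, 13.70 and 13.80 in LD cells. The organoids lay above every LD sample, and the reading was the highest or the next highest of all 34958 in each organoid array, against rank 67, 52 and 42 in LD replicas A, B and C. The difference from LD cells was 0.92 log2 in yMaSC organoids (SE 0.09, 1.89-fold, limma adjusted p = 0.000111) and 0.89 log2 in MaSC organoids (adjusted p = 0.00012). The second probe set, 1451851_a_at, read 10.39, 10.22 and 11.19 in yMaSC organoids, 10.36, 10.73 and 10.89 in MaSC organoids, and 3.37, 4.28 and 5.43 in LD cells. Its differences were 6.24 log2 in yMaSC organoids (SE 0.47, limma adjusted p = 2.86e-05) and 6.30 log2 in MaSC organoids (adjusted p = 2.49e-05). With LD replica B left out, the differences were 0.92 and 0.89 log2 for 1419735_at and 6.20 and 6.26 log2 for 1451851_a_at. Both probe sets gave Csn3 as higher in organoids, but by very unequal amounts, and whether the first was limited by the top of the scale was not tested. They disagreed on the level in LD cells, where 1451851_a_at had rank 28682, 23717 and 18261 in replicas A, B and C. The cause of this disagreement was not tested.

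β-casein, encoded by Csn2, forms the micelle core together with the α-caseins. Probe set 1420369_a_at read 3.29, 3.0 and 3.31 in yMaSC organoids, 2.93, 3.0 and 2.87 in MaSC organoids, and 14.15, 2.70 and 14.07 in LD replicas A, B and C. Probe set 1420370_s_at, of a kind whose probes can match more than a single transcript, read 3.44, 3.35 and 3.26 in yMaSC organoids, 3.50, 3.41 and 3.11 in MaSC organoids, and 12.98, 3.44 and 12.97 in LD cells. Csn2 was near background in both kinds of organoid and, at 2.70 and 3.44, in LD replica B, so the groups overlapped, while LD replicas A and C were close to the top of the scale. For 1420370_s_at the difference passed, at -6.45 log2 in yMaSC organoids (SE 2.15, limma adjusted p = 0.0454) and -6.46 log2 in MaSC organoids (adjusted p = 0.0438). For 1420369_a_at it was -7.11 log2 (adjusted p = 0.0612) in yMaSC organoids and -7.37 log2 (adjusted p = 0.0522) in MaSC organoids and did not pass. The call of 1420370_s_at was lost when any 1 of the 8 arrays other than LD replica B was left out, with adjusted p between 0.0603 and 0.145 in yMaSC organoids and between 0.0565 and 0.142 in MaSC organoids. With LD replica B set aside both probe sets passed, and 1420369_a_at was at least 1924-fold lower in yMaSC organoids and at least 2315-fold lower in MaSC organoids (limma adjusted p = 2.22e-08 and 1.84e-08).

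Csn1s2a, which encodes an αS2-type casein, followed Csn2. Probe set 1436170_a_at read 4.26, 4.57 and 4.76 in yMaSC organoids, 4.36, 4.59 and 4.57 in MaSC organoids, and 13.93, 3.73 and 13.93 in LD cells. All organoid arrays lay between LD replica B and the other two LD samples. The difference did not pass, at -6.00 log2 in yMaSC organoids (SE 2.30, limma adjusted p = 0.0748) and -6.02 log2 in MaSC organoids (adjusted p = 0.0719), and 1420633_a_at gave -5.97 and -6.21 log2 with adjusted p = 0.0751 and 0.0639. Without LD replica B the difference of 1436170_a_at was -9.40 log2 in yMaSC organoids (limma adjusted p = 1.56e-07) and -9.42 log2 in MaSC organoids (adjusted p = 1.53e-07).

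Csn1s1, which encodes the αS1-type casein, was the only one of the casein probe sets that split both the organoids and the LD cells by replica. It read 8.34, 8.86 and 13.29 in yMaSC organoids A, B and C, 7.72, 9.14 and 12.85 in MaSC organoids, and 13.78, 5.89 and 13.66 in LD cells. Organoids of letter C came within 1 log2 of LD replicas A and C, organoids of letters A and B were lower, and LD replica B was lower than all of them. The differences were -0.95 log2 in yMaSC organoids (SE 2.30, limma adjusted p = 0.787) and -1.21 log2 in MaSC organoids (adjusted p = 0.722), and the sign turned without LD replica A (0.39 and 0.13 log2) or C (0.33 and 0.07 log2). With LD replica B set aside the differences were -3.56 and -3.82 log2 and still did not pass (limma adjusted p = 0.169 and 0.139).

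Among the whey proteins, whey acidic protein is a product of rodent milk encoded by Wap. It read 4.78, 5.20 and 5.16 in yMaSC organoids, 4.94, 5.29 and 4.85 in MaSC organoids, and 12.10, 4.33 and 10.91 in LD cells. LD replica B was below every organoid and the other LD samples were far above. The difference of -4.07 log2 in yMaSC organoids (SE 1.64, limma adjusted p = 0.0877) and of -4.09 log2 in MaSC organoids (adjusted p = 0.0845) did not pass. With LD replica B left out, Wap was 87.9-fold lower in yMaSC organoids (limma adjusted p = 1.59e-05) and 89.2-fold lower in MaSC organoids (adjusted p = 1.37e-05).

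α-lactalbumin, encoded by Lalba, is the partner of B4galt1 in lactose synthesis. It read 7.64, 7.41 and 9.92 in yMaSC organoids, 7.67, 7.01 and 10.42 in MaSC organoids, and 11.08, 6.88 and 12.65 in LD cells. The groups overlapped, with LD replica B below all organoids and the organoids of letter C above those of letters A and B. The differences were -1.88 log2 in yMaSC organoids (SE 1.46, limma adjusted p = 0.364) and -1.84 log2 in MaSC organoids (adjusted p = 0.369). Without LD replica B they were -3.54 and -3.50 log2 and passed (limma adjusted p = 0.0431 and 0.0443).

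Lactoferrin, encoded by Ltf, is an iron-binding protein of milk that neutrophil granules also hold. It read 10.60, 11.76 and 8.28 in yMaSC organoids, 10.38, 12.46 and 8.0 in MaSC organoids, and 12.46, 13.42 and 12.99 in LD cells. It was high in all LD samples, highest in LD replica B, and every yMaSC organoid lay below them, while MaSC organoid B reached LD replica A. The differences were -2.74 log2 in yMaSC organoids (SE 1.13, limma adjusted p = 0.0936) and -2.68 log2 in MaSC organoids (adjusted p = 0.099). The yMaSC difference passed without MaSC organoid C (limma adjusted p = 0.0423), and the MaSC difference was -3.77 log2 and passed without MaSC organoid B (adjusted p = 0.0276). Leaving out LD replica B gave -2.51 and -2.45 log2 (limma adjusted p = 0.196 and 0.205). The mean level of 7 other neutrophil markers was between 4.44 and 4.73 in organoids and 4.78, 6.14 and 4.70 in LD replicas A, B and C, with 4 of the 7 highest in B, and the part of such cells in Ltf was not tested.

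Glycam1, a mucin-like glycoprotein of milk that high endothelial venules also make, had the widest difference of the members that passed. It read 4.69, 3.46 and 3.33 in yMaSC organoids, 4.40, 3.28 and 4.29 in MaSC organoids, and 12.67, 9.85 and 11.97 in LD cells. No organoid came near an LD sample, and LD replica B was again the lowest of its group, though still high. Glycam1 was -7.67 log2 in yMaSC organoids (SE 0.69, 204-fold lower, limma adjusted p = 6.7e-05) and -7.51 log2 in MaSC organoids (adjusted p = 6.97e-05). In a fit without LD replica B it was 360-fold lower in yMaSC organoids and 322-fold lower in MaSC organoids (limma adjusted p = 2.56e-05 and 2.53e-05). Of the endothelial markers, the venule genes Madcam1, Chst4 and Fut7 read 2.63 to 4.56 in LD cells, and the mean of the 7 endothelial markers was 3.68, 4.88 and 3.83 in LD replicas A, B and C. The part of such cells in Glycam1 was not tested.

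Butyrophilin, encoded by Btn1a1, sits in the membrane of the milk fat globule. Probe set 1419175_a_at read 3.58, 4.01 and 4.72 in yMaSC organoids, 3.55, 4.10 and 4.45 in MaSC organoids, and 9.92, 8.56 and 10.49 in LD cells. The groups were wide apart. Btn1a1 fell by 5.55 log2 in yMaSC organoids (SE 0.49, 47.0-fold, limma adjusted p = 5.9e-05) and by 5.62 log2 in MaSC organoids (adjusted p = 5.14e-05), and with LD replica B left out the differences were -6.10 and -6.17 log2. The other probe sets, 1425754_a_at and 1451824_at, were near background in organoids and, with means of 3.47 and 3.31, in LD cells too. Both passed as lower, at -1.24 and -0.79 log2 in yMaSC organoids and -1.28 and -0.85 log2 in MaSC organoids. The call of 1451824_at was lost on leaving out any 1 array but LD replica B in yMaSC organoids (limma adjusted p between 0.0545 and 0.124) and, in MaSC organoids, on leaving out LD replica A or any 1 MaSC organoid (highest adjusted p = 0.0897).

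Lactadherin, encoded by Mfge8, binds phosphatidylserine and is made by many cell types beside milk-secreting cells. It read 13.08, 12.86 and 13.12 in yMaSC organoids, 12.92, 12.95 and 13.03 in MaSC organoids, and 12.82, 12.75 and 13.16 in LD cells. The groups overlapped fully. The difference was 0.11 log2 in yMaSC organoids (95% confidence interval -0.19 to 0.41, limma adjusted p = 0.564) and 0.06 log2 in MaSC organoids (-0.24 to 0.36, adjusted p = 0.773), so a difference of 1 log2 lay outside both intervals. The differences without LD replica B were 0.03 and -0.02 log2. Btn1a1, the other fat globule protein of the set, was far lower in the same organoids.

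Without LD replica B, 12 of 18 milk protein probe sets passed in yMaSC organoids and 12 in MaSC organoids, 2 higher and 10 lower in each, against 34.1% and 34.9% of all probe sets. The sample was set aside for its own milk protein values, so these counts are a description. The additional calls were those of Csn1s2a, Csn2, Wap and Lalba. Setting the sample aside changed no sign of a call, and Csn3, Glycam1 and the Btn1a1 probe sets passed either way.

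LD replica B lay more than 4 log2 below the mean of LD replicas A and C in 14 probe sets, and more than 4 log2 above it in 16. Such counts were not made for replicas A and C. The range over the LD samples had a median of 0.38 log2 over all probe sets and 2.0 log2 over the 18 milk protein probe sets, and 47 probe sets (0.134%) had a range over 4 log2, of which 7 were milk protein probe sets. Ordered by the excess of LD replicas A and C over B, the first 6 of 34958 probe sets were Csn2 1420369_a_at (11.41 log2), Csn1s2a 1436170_a_at (10.20 log2), Csn1s2a 1420633_a_at (10.12 log2), Csn2 1420370_s_at (9.54 log2), Csn1s1 (7.83 log2) and Wap (7.18 log2). Lalba was number 9, at 4.99 log2 or 31.7-fold. The excess was 2.47 log2 for Glycam1 and 1.65 log2 for Btn1a1 1419175_a_at. For Csn3 1419735_at it was 0.00 log2, for Mfge8 0.24 log2, and for Ltf -0.70 log2, with replica B the highest for Ltf. For Csn3 1451851_a_at it was 0.12 log2, with replica A below B and replica C above it over a range of 2.06 log2.

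Markers of other cells moved with this split. The mean level of 8 fibroblast and adipocyte markers was 7.11 in LD replica B, against 5.38 in A and 5.20 in C, and 7 of the 8 were highest in B. All 7 endothelial markers were highest in B, with means of 4.88 in B, 3.68 in A and 3.83 in C. The mean of 7 cell cycle genes was 4.95 in B, against 7.22 in A and 6.73 in C, and all 7 were lowest in B. The luminal list, keratins included, was at 12.99 in B, 13.13 in A and 12.97 in C, a spread of less than 1 log2. The part of these cells or of proliferation in the milk protein values was not tested.

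**Figure D2:**
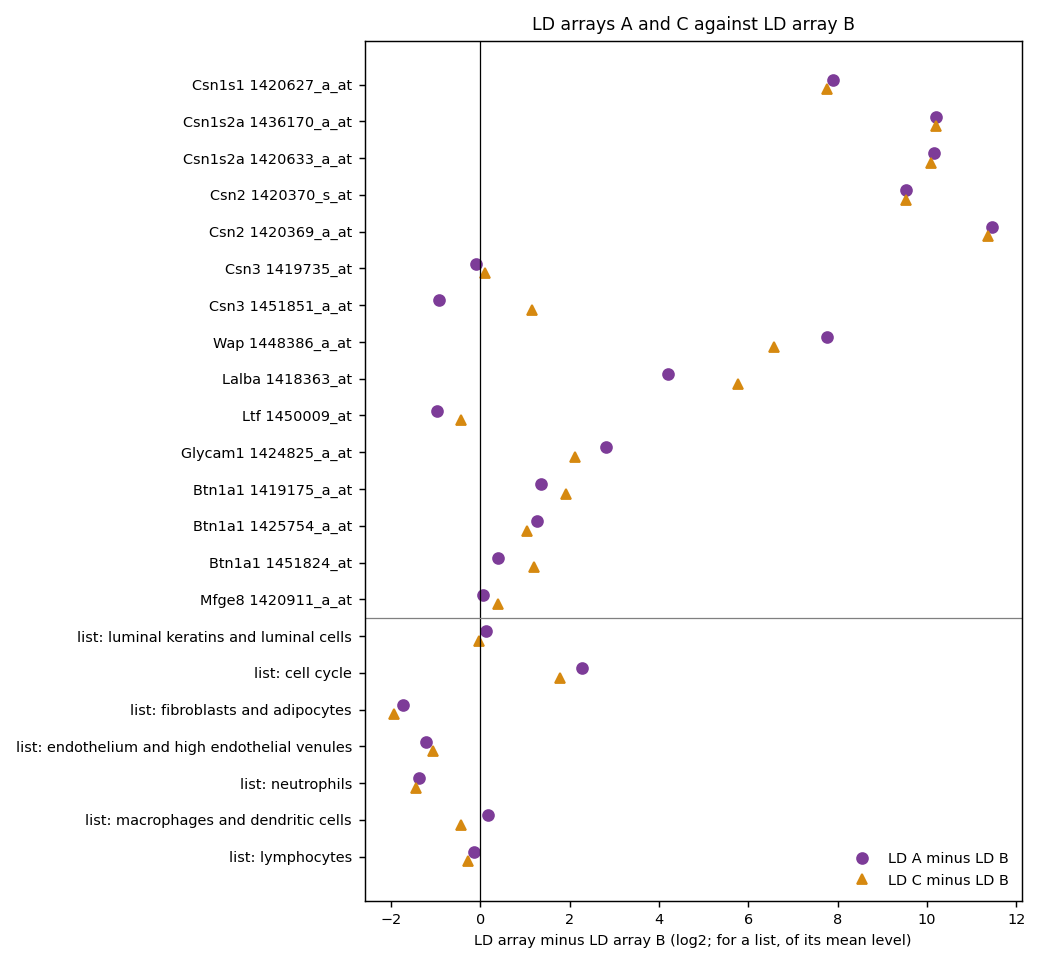
LD replica A minus B (circles) and C minus B (triangles) in log2 for milk protein probe sets (upper rows) and for the mean level of marker lists (lower rows). Csn2, Csn1s2a, Csn1s1, Wap and Lalba lie 4 log2 or more to the right, and Csn3 1419735_at and Mfge8 lie within 1 log2 of 0. Csn3 1451851_a_at has A to the left and C to the right, and Ltf and the fibroblast, endothelial and neutrophil lists lie to the left.

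The organoids were then compared with each other, which asks whether those grown from LD cells after YAP expression express milk proteins as those grown from native stem cells do. No milk protein probe set passed between yMaSC and MaSC organoids (limma, 0% of all probe sets passed, lowest adjusted p = 1), and 0 of 18 had an unadjusted p under 0.05, against 0.644% of all. The differences lay between -0.16 and 0.27 log2. In the fit of all arrays 7 of 18 intervals lay within 1 log2, against 94.1% over all probe sets. These intervals carry the spread of LD cells and, for Csn1s1, Lalba and Ltf, also that between organoid replicas. For Ltf the SD was 0.48 in LD cells, against 1.77 in yMaSC organoids and 2.23 in MaSC organoids. In the organoid arrays alone, with the replica letter as a block, all 18 of 18 intervals lay within 1 log2, against 98.5% of all. None of the 18 had an unadjusted p under 0.05 in this fit (limma), against 1174 of all 34958 probe sets. The lowest adjusted p was 0.972.

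The paired differences are given for the 6 probe sets whose organoid mean lay above the upper quartile. yMaSC organoids minus MaSC organoids gave 0.26 log2 for Csn1s1 (-0.20 to 0.72), -0.04 log2 for Lalba (-0.48 to 0.39) and -0.07 log2 for Ltf (-0.58 to 0.45). For Csn3 the values were 0.03 log2 (-0.16 to 0.22) with 1419735_at and -0.06 log2 (-0.47 to 0.35) with 1451851_a_at, the first being at the top of the scale, where a difference may not show. For Mfge8 the value was 0.05 log2 (-0.17 to 0.28). The other 12 probe sets had a low signal in both kinds of organoid.

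The organoids were also compared by replica letter, which the labels share between their kinds. Among the 6 organoid arrays, with the kind of organoid in the model, 4 of 18 milk protein probe sets passed the F test of the letter (limma), against 4.24% of all probe sets. They were Csn1s1 (adjusted p = 0.00419), Ltf (adjusted p = 0.00787), Lalba (adjusted p = 0.0085) and Btn1a1 1419175_a_at (adjusted p = 0.0312). That organoids of letter C differ was known from earlier results of these data, so the values are a description.

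Csn1s1 of organoid C exceeded the mean of A and B by 4.69 log2 in yMaSC organoids and 4.42 log2 in MaSC organoids, rank 4 and 3 among all 34958 probe sets. Lalba did so by 2.40 log2 in yMaSC organoids and 3.08 log2 in MaSC organoids, and Btn1a1 by 0.93 and 0.63 log2. Ltf went the other way, at -2.90 log2 in yMaSC organoids and -3.42 log2 in MaSC organoids, with MaSC organoid C at 8.0. Csn2, Csn1s2a and Wap, which with Csn1s1 had the widest excess of LD replicas A and C over B, did not pass. They stayed at 2.87 to 5.29 in every organoid array, letter C included. A high Csn1s1 value was thus found with Csn2 high in LD replicas A and C and with Csn2 near background in organoids of letter C.

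The cell cycle genes and markers of other cells moved with the letter as well. The mean of the cell cycle genes was 6.69 in yMaSC organoid C, against 4.99 in A and 4.65 in B, and 6.83 in MaSC organoid C, against 4.78 in A and 4.56 in B, and all 7 were highest in C in both kinds of organoid. The mean of 9 basal markers was 8.47 in yMaSC organoid C, against 7.83 in A and 7.67 in B, and 9.17 in MaSC organoid C, against 7.58 in A and 7.49 in B, with 7 of the 9 highest in C in both kinds. The mean of 5 hormone-sensing luminal markers was 8.85 in yMaSC organoid C, against 8.25 in A and 8.08 in B, and 9.64 in MaSC organoid C, against 8.24 in A and 7.91 in B, with 4 of the 5 highest in C in both kinds. The luminal list was at 11.90 in yMaSC organoid C, against 11.69 in A and 11.78 in B, and at 11.80 in MaSC organoid C, against 11.44 in A and 11.83 in B. The part of proliferation or of cell composition in the Csn1s1, Lalba, Ltf and Btn1a1 values was not tested.

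**Figure D3:**
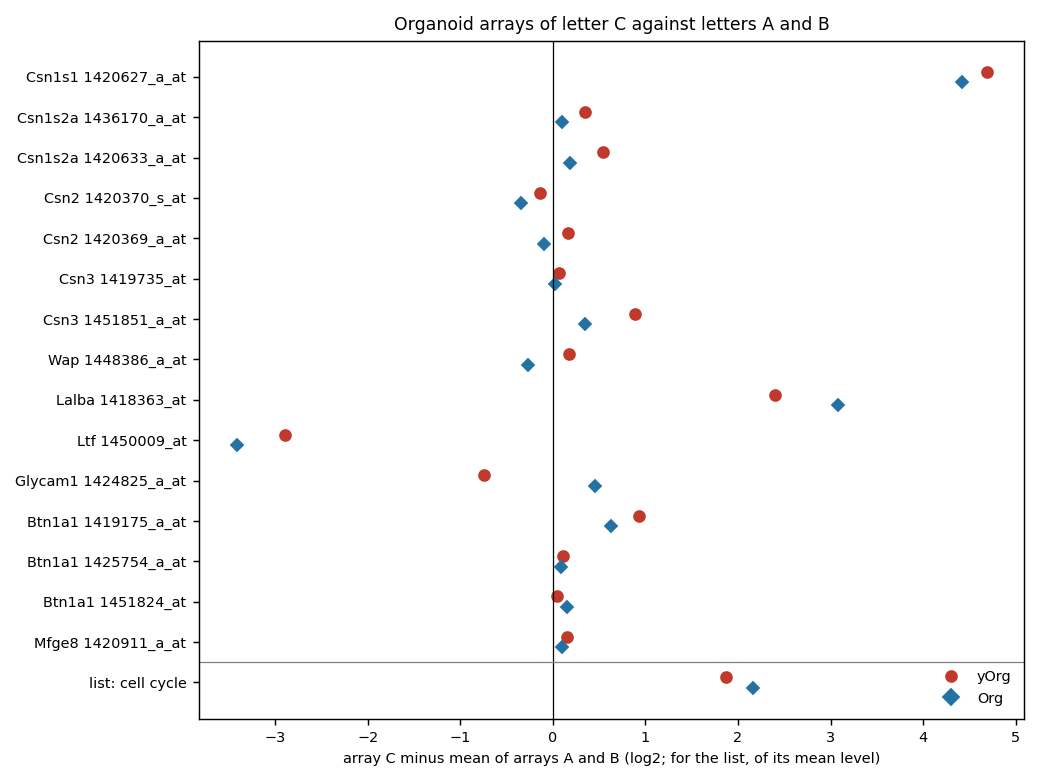
Organoid replica C minus the mean of replicas A and B (log2) for each milk protein probe set, with yMaSC organoids (circles) above MaSC organoids (diamonds), and below the line the same for the mean level of the cell cycle list. Csn1s1 and Lalba lie to the right and Ltf to the left in both kinds of organoid, and Csn2, Csn1s2a and Wap lie within 1 log2 of 0.

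The genes whose pattern over the 9 arrays was most like that of each member were taken by Pearson r among 7120 genes with a range of at least 1 log2. The arrays share 3 groups and the 9 points are few, so r is a description only. For Csn1s1 they were Melk (r = 0.972), Aurkb (r = 0.957) and Bub1b (r = 0.950), which encode kinases of dividing cells. For Csn2 they were Tnfsf11 (r = 0.990), which encodes RANKL, then Bmpr1b and AI506816. Csn1s2a had AI506816 (r = 0.989), Bcl2l15 and Capn9, and Wap had Bmpr1b (r = 0.992), AI506816 and Entpd8. Tnfsf11 read 3.16, 3.08 and 2.74 in yMaSC organoids, 2.52, 2.66 and 3.04 in MaSC organoids, and 6.53, 3.04 and 6.44 in LD cells, the same split of the LD samples as Csn2.

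Lalba was closest to Stmn1 (r = 0.985), Knstrn and Tnfsf10, and Ltf to Btg2 (r = 0.970), Frmd6 and Mvp. Csn3 was closest to Chil1 (r = 0.998), Lonp2 and 4933434E20Rik. Chil1, which encodes a chitinase-like protein, read 14.27, 14.32 and 14.39 in yMaSC organoids, 14.32, 14.37 and 14.47 in MaSC organoids, and 9.05, 9.43 and 10.20 in LD cells. Glycam1 was closest to Nckap5 (r = 0.994), Metap1 and Phyh, Btn1a1 to Gm31718 and Mdk (r = 0.997) and Rasgef1b, and Mfge8 to Epb41l4a (r = 0.869), Galnt18 and Dcakd. The members did not share one pattern: Tnfsf11 followed the split of LD cells, Melk also that of the organoids, and Chil1 the rise in organoids.

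Genes around the caseins and of the wider milk programme were read from lists, leaving out the 10 genes themselves and taking 1 probe set a gene. Over all genes, 21.5% passed as higher and 14.1% as lower in yMaSC organoids, and 22% and 15% in MaSC organoids. Of 9 measured neighbours of the caseins 0 passed in yMaSC organoids (limma, 1 at an unadjusted p under 0.05), and Odam, an enamel-associated secreted protein, passed as higher in MaSC organoids, by 1.0 log2 (limma adjusted p = 0.0125, against 0.73 log2 and 0.0501 in yMaSC organoids). Odam read 2.70, 2.42 and 3.20 in LD cells, near background, and 3.72, 3.38 and 4.23 in MaSC organoids, around the lower quartile. Sult1d1, a sulfotransferase gene, was at 1.92 log2 in yMaSC organoids and 1.66 log2 in MaSC organoids and did not pass (limma adjusted p = 0.126 and 0.179).

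Of 15 other milk and secretory proteins, 5 were higher and 3 lower in yMaSC organoids, and 5 and 4 in MaSC organoids. Saa3, an acute-phase protein also made by mammary epithelium, was 4.60 log2 higher in yMaSC organoids (limma adjusted p = 0.00446) and 5.30 log2 higher in MaSC organoids (adjusted p = 0.00204). Muc4, a membrane mucin, was -3.65 log2 in yMaSC organoids (adjusted p = 0.00105) and -3.67 log2 in MaSC organoids (adjusted p = 0.000972). Muc4 was near background in organoids, at 2.83 to 3.34, so its differences are lower limits. The lysozyme genes Lyz1 and Lyz2, products also of macrophages, differed by -4.77 and -2.37 log2 in yMaSC organoids and by -3.36 and -1.69 log2 in MaSC organoids, all passing as lower. Lyz1 was near background in yMaSC organoids, at 3.08 to 3.22, but read 7.30 in MaSC organoid C, above LD replica C at 6.48. With LD replica B left out neither lysozyme gene passed in MaSC organoids (limma adjusted p = 0.0943 for Lyz1 and 0.0766 for Lyz2). Of 8 markers of macrophages and dendritic cells, Lyz2 among them, 4 were lower in yMaSC organoids and 5 in MaSC organoids, and 3 in each with LD replica B left out. Ptprc, the pan-leukocyte gene, read 2.64 to 2.99 in organoids and 8.17 to 8.94 in LD cells, and 5 of 7 lymphocyte markers were lower in each kind of organoid. The part of leukocytes in the lysozyme values was not tested.

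Of 16 genes of the fat globule and of lipid secretion, 5 were higher and 4 lower in each kind of organoid. Scd2, a fatty acid desaturase, was 3.99 log2 higher in yMaSC organoids (limma adjusted p = 1.78e-05) and 4.08 log2 higher in MaSC organoids (adjusted p = 1.42e-05). Cidea, a lipid droplet protein of lactating mammary cells, was -3.67 log2 in yMaSC organoids (adjusted p = 0.000229) and -3.79 log2 in MaSC organoids (adjusted p = 0.000181). The fatty acid transporter Cd36 and the lipoprotein lipase Lpl were lower too, at -3.44 and -2.24 log2 in yMaSC organoids and -3.36 and -2.90 log2 in MaSC organoids. Lipid genes thus moved in both directions. In LD replicas A, B and C, Cidea read 8.15, 8.98 and 7.45 and Cd36 6.48, 8.08 and 3.56, both highest in B, unlike Csn2. Of the 16 genes, 4 were highest and 11 lowest in LD replica B among LD cells, by the probe set taken for each gene. The fatty acid-binding protein gene Fabp3 was counted among the 4, with 4.64, 4.82 and 4.76 in LD replicas A, B and C. Another Fabp3 probe set, 1416023_at, went the other way, with 9.62, 3.08 and 8.82. Cd36 was near background in organoids, so its differences are lower limits. The part of other cells in these values was not tested.

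Of 10 genes that supply lactose and calcium, 3 were higher and 0 lower in yMaSC organoids (limma, 2 lower at an unadjusted p under 0.05), and 3 higher and 2 lower in MaSC organoids. Pgm1 and Ugp2, which make the UDP-glucose for lactose, were 1.58 and 1.29 log2 higher in yMaSC organoids and 1.22 and 1.03 log2 higher in MaSC organoids. The glucose transporter gene Slc2a1 passed as lower in MaSC organoids, at -0.95 log2 (limma adjusted p = 0.0158), and was at -0.65 log2 in yMaSC organoids (adjusted p = 0.0726). Hexokinase gene Hk2 passed as lower in MaSC organoids, at -1.88 log2 (adjusted p = 0.0393), and was at -1.57 log2 in yMaSC organoids (adjusted p = 0.0772). When LD replica B was left out, a choice made after seeing the data as for all the gene lists, 3 were higher and 0 lower in yMaSC organoids, and 2 higher and 1 lower in MaSC organoids, where Pgm1 and Hk2 no longer passed (limma adjusted p = 0.072 and 0.114).

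Of 13 measured genes of lactogenic signalling, 3 were higher and 4 lower in yMaSC organoids, and 4 and 4 in MaSC organoids. The prolactin receptor gene Prlr was listed but not measured. Cish, a feedback inhibitor that STAT5 is known to induce, read 5.74, 6.02 and 6.72 in yMaSC organoids, 5.65, 6.06 and 6.15 in MaSC organoids, and 8.87, 8.34 and 9.11 in LD cells. It was -2.61 log2 in yMaSC organoids (SE 0.28, limma adjusted p = 0.000168) and -2.82 log2 in MaSC organoids (adjusted p = 0.000105), with LD replica B at the low end of LD cells but far above all organoids. The kinase gene Jak2 was lower, at -1.02 log2 in yMaSC organoids and -0.82 log2 in MaSC organoids. Stat5a was at -0.72 log2 in yMaSC organoids (limma adjusted p = 0.0209) and -0.56 log2 in MaSC organoids (adjusted p = 0.0547). Stat5b was at 0.30 log2 in yMaSC organoids (limma adjusted p = 0.157) and 0.47 log2 in MaSC organoids (adjusted p = 0.0349). With LD replica B left out, in MaSC organoids Stat5a passed (limma adjusted p = 0.0467) and Stat5b did not (adjusted p = 0.0623). The receptor genes Ghr and Insr were higher, by 1.68 and 1.12 log2 in yMaSC organoids and by 1.73 and 1.21 log2 in MaSC organoids.

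Of 11 regulators of the alveolar lineage, 5 were higher and 4 lower in each kind of organoid. Elf5, the ETS factor that alveolar differentiation requires, read 11.55, 12.01 and 11.81 in yMaSC organoids, 11.66, 12.18 and 11.68 in MaSC organoids, and 9.01, 8.43 and 9.74 in LD cells. It was 2.73 log2 higher in yMaSC organoids (SE 0.31, limma adjusted p = 0.000199) and 2.78 log2 higher in MaSC organoids (adjusted p = 0.000171), in the same arrays in which Csn2 and Wap were low. Cited1 and Wnt4, genes of hormone-sensing luminal cells, were lower, at -5.11 and -3.34 log2 in yMaSC organoids and -5.17 and -3.42 log2 in MaSC organoids. Tnfsf11 passed as lower, at -2.34 log2 in yMaSC organoids (limma adjusted p = 0.0476) and -2.60 log2 in MaSC organoids (adjusted p = 0.0311), with LD replica B at 3.04. With that sample left out it was at -3.49 and -3.75 log2 (limma adjusted p = 1.8e-05 and 1.27e-05). Tnfsf11 was near background in both kinds of organoid, so these differences are lower limits.

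Marker levels of several cell types differed between organoids and LD cells. Of 9 luminal markers 7 were lower in each kind of organoid, with Krt8 between 13.14 and 13.48 in organoids and between 14.13 and 14.26 in LD cells. Of 9 basal markers 6 were higher in each, with Trp63 4.96 log2 higher in yMaSC organoids and 4.99 log2 higher in MaSC organoids. Of 5 measured hormone-sensing markers 4 were lower in yMaSC organoids and 3 in MaSC organoids, and of 6 luminal progenitor markers 1, Elf5, was higher and 1, Aldh1a3, lower in each. Krt8 was at -0.90 log2 in yMaSC organoids and -0.93 log2 in MaSC organoids (limma adjusted p = 0.000559 and 0.000452), and Cldn4, a tight junction gene, at -3.37 and -3.53 log2. The keratin gene Krt19 was at -1.81 log2 in yMaSC organoids and -2.10 log2 in MaSC organoids, and Krt7 at -1.50 and -1.82 log2, all passing as lower. With LD replica B left out, 7 luminal markers were again lower in each kind of organoid, 5 basal markers were higher in each, and 2 hormone-sensing markers were lower in each. The part of cell composition in the milk protein differences was not tested.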

How the data were processed

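The deposited values were log2 values that the authors obtained by RMA (background correction, quantile normalization and probe summary) from 9 Affymetrix arrays. No source used here gives the software version. Quantile normalization gives all arrays nearly the same distribution, so a shift of all genes cannot be seen. The table held 0 columns of other samples. Of 45101 probe sets, 34958 had 1 gene in the array's annotation, 932 several and 9211 none in the table used, and the first were tested with no filter. Names of old annotations were kept.

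The 3 groups were modelled for each probe set with limma 3.58.1 (R 4.3.3) and moderated spreads over all probe sets, two-sided, with Benjamini-Hochberg adjustment and a threshold of 0.05. The scripts were tested on simulated data. Named genes were all members, up to 4 genes of each list with the widest difference among those that passed, and the 3 genes most like each member. The members and lists were chosen with earlier results of these data known. The replica letters are called biological replicas, and nothing says which shared a mouse or day. Deviations from the group means correlated between same-letter yMaSC and MaSC organoids (r = 0.584, 0.560 and 0.635 for A, B and C), so the letters pair the organoids, and did not between organoids and LD cells (r from -0.065 to 0.021). Alternatives were 1 probe set a gene, a filter on low values, a common median, cyclic loess, fits of the compared groups only, the letter as a block, array weights, and leaving out arrays. Promoter sequences came from RefSeq.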

Additional observations from a re-analysis of the deposited data

How the results depend on the processing

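The count of milk protein probe sets that passed against LD cells was 7 in both kinds of organoid. It became 4 of 10 in each with 1 probe set per gene, where fewer probe sets were tested. With array weights it was 11 in yMaSC organoids and 12 in MaSC organoids, and the cause was not tested. Leaving out 1 array at a time gave 5 to 12 in both, the highest without LD replica B. With the letter as a replicate block over all arrays it was 8 in yMaSC organoids and 9 in MaSC organoids, though LD cells did not pair by letter, and Ltf then passed (limma adjusted p = 0.0202 and 0.0216). Between yMaSC and MaSC organoids the count was 0 in every setting run, the paired fit included, and the count for the letter among organoids was 4 in each. For single probe sets, each combination of a probe set and a setting was counted. Against LD cells, call and direction held in 223 such combinations in yMaSC organoids and 222 in MaSC organoids. A call was lost in 21 and 17 and gained in 15 and 17, and the sign turned in 2 and 5. Between the organoids the sign turned in 13 combinations and held in 100. It did so for differences near 0 or with wide intervals. Mfge8 in MaSC organoids against LD cells was -0.043 with a common median and -0.02 with array weights, and between -0.023 and 0.182 on leaving out 1 array. Csn1s1 against LD cells was between -3.56 and 0.39 in yMaSC organoids and between -3.82 and 0.13 in MaSC organoids on leaving out 1 array. For yMaSC minus MaSC organoids, leaving out 1 array gave -1.30 to 1.73 for Csn1s1, -0.84 to 0.98 for Lalba, -1.21 to 1.02 for Ltf and -0.36 to 0.13 for Csn3 1451851_a_at. Ltf was 0.17 with array weights, and Lalba was 0.18 without both organoid arrays of letter C. Fits without LD replica B were singled out after seeing the data, for the milk protein genes and for the gene lists. Signal near background limits Csn2 in organoids and 2 Btn1a1 probe sets, and Csn3 1419735_at read near the top of the scale.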

Other observations

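Other genes shared the split of the LD samples, and those named here were chosen after their values were seen. After the milk protein genes, Fabp3 (6.14 log2), which encodes a fatty acid-binding protein, Bcl2l15 (5.12 log2) and Saa1 (4.92 log2 with 1 probe set and 4.84 log2 with another) had the highest excess of LD replicas A and C over B. Fabp3 1416023_at read 3.12, 3.11 and 3.32 in yMaSC organoids, 3.28, 2.92 and 3.32 in MaSC organoids, and 9.62, 3.08 and 8.82 in LD cells, the pattern of Csn2. Saa1 1419075_s_at, an acute-phase gene, instead read 13.99, 14.29 and 13.78 in yMaSC organoids, 14.27, 14.38 and 13.94 in MaSC organoids, and 8.73, 3.42 and 7.94 in LD cells.

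In the opposite direction, 16 probe sets were over 4 log2 higher in LD replica B than in A and C. Fabp4 1417023_a_at, the fatty acid-binding protein of adipocytes and capillaries, read 10.92 in B, against 4.20 in A and 3.70 in C. Selp 1420558_at, the adhesion molecule of activated endothelium, read 11.30 in B, against 4.67 in A and 4.16 in C. The immunoglobulin gene Ighm read 9.10 in B, against 2.88 in A and 2.78 in C. These probe sets of Fabp4, Selp and Ighm were at 4.20 or below in organoids. Not all of the 16 were low there. Rps9 1434624_x_at, a ribosomal protein gene, read 13.05 in B, against 7.47 in A and 7.70 in C, and 12.27 to 12.40 in organoids.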
